A study of Caenorhabditis elegans with 3 samples.

Results

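The srh genes encode the class H serpentine receptors, a nematode family of chemoreceptors, and this account follows their reads in the germline of Caenorhabditis elegans. The members were taken by name alone: every gene that the deposited table calls protein coding and whose name is srh followed by a number. This gave 222 genes out of 20362 protein-coding genes and 46739 genes of all kinds. RNA came from dissected germlines of N2, the wild-type laboratory strain, in 3 libraries that form a single group with no treatment and no second genotype. The labels give no age and no separate animals or cultures for the 3 samples, so their spread may be technical. The series was made to find transcription factors of the germline, and the receptors are measured in it alongside all other genes.

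Chemoreceptors of this kind are G protein-coupled receptors that cross the membrane several times. They are best known from the cilia of sensory neurons in the head and tail, where they meet odorants and pheromones and pass the signal through G proteins to cyclic nucleotide-gated or TRPV channels. The germline holds dividing germ cells, meiotic cells, oocytes and sperm, and it is dissected together with parts of the somatic gonad, but it has no sensory neurons of its own.

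The receptor family was almost without reads in these germlines. None of the 222 genes reached 1 CPM (a read count scaled to the total of its library) in every library, a level that 40.2% of all protein-coding genes reached. No read at all was counted for 191 of the 222 (86.0%), against 22.9% of all protein-coding genes. The remaining 31 genes (14%, against 77.1% of all protein-coding genes) shared 94 reads among them. The median member stood at 0 CPM in each library, while the median protein-coding gene stood at 0.62, 0.385 and 0.6 CPM in replicates 1, 2 and 3. With a single group, there was no contrast to test, and these shares are given as a description.

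The libraries were deep enough to set a low limit on each gene. They held 14523486, 15566299 and 16656171 counts in replicates 1, 2 and 3, and a gene without a read in a library could still be present there at up to 3 counts, which is 0.207, 0.193 and 0.18 CPM. For the 191 genes without a read, 3 counts of the 3 libraries together correspond to 0.0642 CPM each, or 0.0621 CPM per kb for a member of median length, and the exact 95% Poisson interval of a count of 0 reaches 0.0789 CPM. These limits and the intervals below cover counting error only, since amplified reads without molecular identifiers are not independent molecules. Reads that match several near-identical copies may also have been left uncounted, because the rule for such reads is not given in the sources used here. A receptor with a close copy can therefore be at 0 without its transcript being absent.

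The 3 libraries gave similar small amounts. Summed over the family, 29, 35 and 30 reads were counted in replicates 1, 2 and 3, which is 2.0 CPM (95% Poisson interval 1.34 to 2.87), 2.25 CPM (1.57 to 3.13) and 1.8 CPM (1.22 to 2.57). These 3 intervals overlap, and a difference in the family sum between libraries was not tested. The mean was 2.02 ± 0.224 CPM (SD, n = 3) for all 222 genes together. For scale, 8366 protein-coding genes each had more reads than the 94 of the whole family. Per length, the family lay at 0.00829 CPM per kb, the summed CPM over the summed 243 kb of exon. The same ratio was 30.6 CPM per kb over all protein-coding genes with an annotated length. The median protein-coding gene was at 0.548 CPM per kb and the median member at 0.

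The reads were scattered thinly. Of the 666 values that the 222 genes and 3 libraries give, 624 (93.7%) were 0, 22 were a single read and 10 were at least 3 reads, and the highest was 7. A read was seen in 1 library only for 23 genes, in 2 libraries for 5 genes and in all 3 for 3 genes. The genes with a read numbered 16 in replicate 1, 14 in replicate 2 and 12 in replicate 3. Of the 31 genes with any read, 16 had just 1 and 7 had 2. The 5 genes with the most reads took 55 of the 94, or 58.5%.

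**Figure D1:**
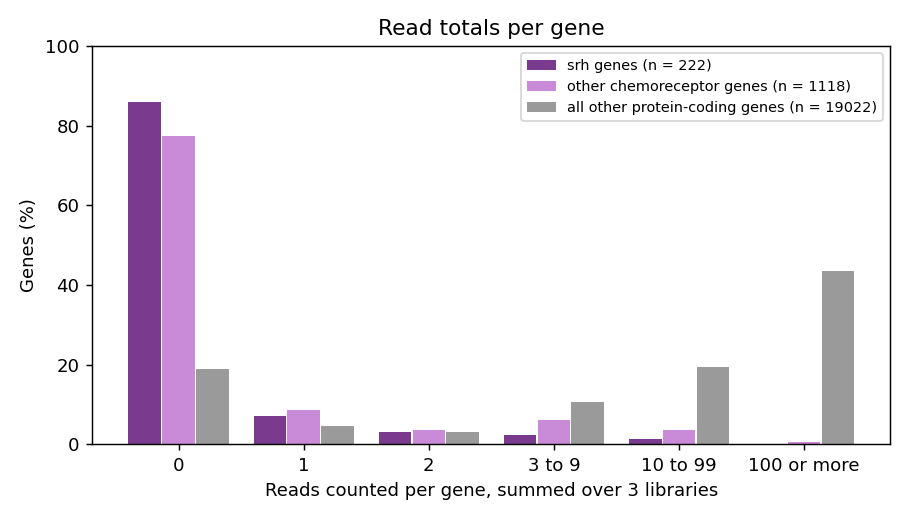
Share of genes (vertical axis, %) by the number of reads summed over 3 libraries (horizontal axis) for srh genes, other chemoreceptor genes and all other protein-coding genes. No read was counted for 86.0% of srh genes, 77.5% of other chemoreceptor genes and 19% of the rest, and no srh gene reached 100 reads.

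The count of members seen in every library was 1. Only srh-48 had at least 3 reads in all 3 libraries, or 0.45% of the family, against 52.3% of all protein-coding genes. At least 3 reads in some library were counted for 7 members, 3.15% of the family against 66.8% of all protein-coding genes. These 7 were srh-48, srh-237, srh-213, srh-16, srh-87, srh-44 and srh-92.

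The member with the most reads was srh-48 (WBGene00005271, chromosome II, 9380096 to 9384994, plus strand, WBcel235). It had 7, 4 and 6 reads in replicates 1, 2 and 3, or 0.482, 0.257 and 0.360 CPM, a mean of 0.366 ± 0.113 CPM (SD, n = 3). Each library was above its limit of detection, and the values overlap within their counting intervals (0.194 to 0.993, 0.07 to 0.658 and 0.132 to 0.784 CPM). Its gene model is the fourth longest of the family at 2024 bases of exon. It is also unusual in structure, with 9 exon blocks where the family median is 3. Its exons share 586 bases with C06C3.5, a pseudogene on the opposite strand that had 18, 33 and 30 reads in the same libraries (1.72 ± 0.446 CPM). The strand setting of the counting is not given, so reads of the receptor and of the antisense pseudogene cannot be told apart in those bases. Exons of 35 members overlap those of another annotated gene, and 7 of these members had reads, 25 in all with the 17 of srh-48. Leaving out these 35 leaves no member with 3 reads in every library.

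Among the 187 members with no such overlap, srh-237 was highest (WBGene00005444, chromosome V, 17090379 to 17091714, plus strand). It had 0, 7 and 5 reads, or 0.0, 0.450 and 0.300 CPM, in replicates 1 to 3. Replicate 1 was below the limit of detection and the other two libraries were above it. Per length it was the highest of the family at 0.242 CPM per kb, with srh-213 at 0.211 and srh-48 at 0.181 CPM per kb, and these 3 differed by less than the spread between libraries.

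The gene srh-213 (WBGene00005423, chromosome V, 3592738 to 3595036, minus strand) had 2, 2 and 7 reads, or 0.138, 0.129 and 0.420 CPM. It was above the limit in replicate 3 only. Its neighbour srh-212 lies just upstream on the same strand (3595148 to 3597152) and had a single read, in replicate 1.

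The gene srh-16 (WBGene00005241, chromosome V, 12291861 to 12294196, plus strand) had 2, 6 and 1 reads, or 0.138, 0.385 and 0.0600 CPM. It was above the limit in replicate 2 only. Like srh-48 it has a long, divided model, with 1701 bases of exon in 8 blocks.

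The fifth gene by reads was srh-87 (WBGene00005308, chromosome V, 2944377 to 2945702, minus strand), with 2, 4 and 0 reads in replicates 1 to 3. The genes srh-44 and srh-92 each had 3 reads in a single library, replicate 1 for srh-44 (WBGene00005267, chromosome II) and replicate 2 for srh-92 (WBGene00005313, chromosome V). Just below the limit stood srh-71 (WBGene00005292, chromosome II), with 0, 1 and 2 reads. The places after it in mean CPM went to srh-277 and srh-63, each with 2 reads in replicate 1 and none in the other two libraries. In all, 7 genes had 2 reads, and the order among them follows from the library totals alone. Such counts of 2 or 3 reads have intervals that reach close to 0, for example 0.0132 to 0.188 CPM for srh-44 over the 3 libraries together.

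**Figure D2:**
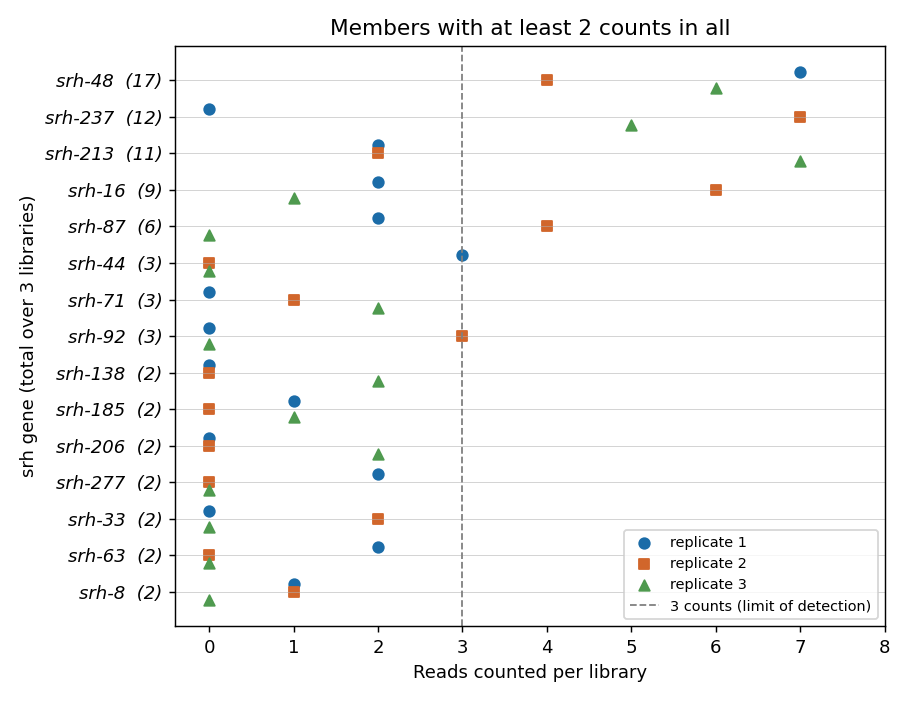
Reads counted in each of the 3 libraries (horizontal axis) for the 15 srh genes with at least 2 reads in all (vertical axis, with the total in brackets); the dashed line marks 3 counts, the limit of detection. Only srh-48 has all 3 libraries at or right of the line, and no library exceeds 7 reads.

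The library in which a receptor was seen changed from gene to gene. The largest gaps between libraries were those of srh-237 (0.450 CPM between replicates 1 and 2), srh-16 (0.325 CPM between replicates 2 and 3) and srh-213 (0.292 CPM between replicates 3 and 2). The library with the most reads was replicate 2 for srh-237, srh-16 and srh-87, replicate 3 for srh-213 and replicate 1 for srh-48. Of the 16 genes with a single read, 7 had it in replicate 1, 5 in replicate 2 and 4 in replicate 3. Between the libraries, some lists of other transcripts differed far more than the receptor sum. In replicates 1 to 3, 20 spermatogenesis genes added up to 9440, 1110 and 3230 CPM. The sums were 399, 1760 and 676 CPM for 9 intestinal genes and 688, 55.5 and 160 CPM for 8 cuticle genes. Other lists were steadier, with 168, 171 and 166 CPM for 16 pan-neuronal genes and 1140, 1060 and 1100 CPM for 11 somatic gonad genes. The part of any of these transcripts in the receptor reads was not tested.

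Members known from reporter genes in sensory neurons were at 0. Expression of srh-142 is known from the ADF neurons, and of srh-220 and srh-234 from the ADL neurons, which sense pheromones and repellents. None of these genes had a read in any library, and neither had srh-132. The same held for 191 of the 222 members (86.0%), so the zeros do not set these genes apart from the family. They lie on chromosome V (srh-132 at 17410255 to 17411705, srh-142 at 16459336 to 16460966 and srh-234 at 7650242 to 7651857) and on chromosome IV (srh-220 at 3976429 to 3978015), and their exons add up to between 1005 and 1050 bases. The limit of 0.0642 CPM over the 3 libraries together holds for each.

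The family is concentrated on chromosome V, which holds 182 of the 222 genes (82.0%). Chromosome II holds 27, chromosome IV 7, chromosome I 3, the X chromosome 2 and chromosome III 1. On chromosome V, 157 members (86.3%) had no read, against 37.5% of the 4893 other protein-coding genes there, of which 24.6% reached 1 CPM in every library. With the other chemoreceptors also set aside, 30.2% of 4163 genes of chromosome V had no read. On chromosome II, 23 of 27 members (85.2%) had no read, against 18.9% of 3460 other genes. The members of chromosome V had 67 reads in all and those of chromosome II had 24, of which 17 belonged to srh-48. Chromosome IV gave 2 reads, from srh-63, the X chromosome 1 read, from srh-19, and chromosomes I and III none.

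The receptors are slightly shorter than most genes. Their exons add up to a median of 1033.5 bases (510 to 3647), against a median of 1166 for protein-coding genes. Among 5370 other protein-coding genes with exons of similar total length (the span from the 5th to the 95th percentile of the family), 28.4% had no read and 33.6% reached 1 CPM in every library. Most srh models are compact, with at most 5 exon blocks in 211 members. Of the 11 members with more blocks, 3 had reads (srh-48, srh-16 and srh-44), beside 31 of 222 in the whole family. The other 8 had none, among them srh-2, whose 9 blocks equal those of srh-48. Among the 8 longest models, srh-48, srh-16 and srh-277 had 17, 9 and 2 reads. The rest of these, srh-271, srh-70, srh-279, srh-208 and srh-154, had none. A link of reads with model length or blocks was not tested.

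Many receptors stand next to each other. Of the 222 genes, 122 lie in 45 runs of 2 or more members with no other protein-coding gene between them, and 100 stand alone. The members in runs had 22 reads, spread over 8 of 122 genes, and the lone members had 72 reads over 23 of 100. In the whole family, 31 of 222 genes had reads. Few genes made up much of both sums. Of the reads of lone members, srh-48 had 17, srh-237 had 12, srh-16 had 9 and srh-87 had 6. In the runs, 12 of the 22 reads came from the run of srh-213 and srh-212. No read was counted in 39 of the 45 runs, in a family where 191 of 222 members (86.0%) had none. The longest run, of 9 genes from srh-292 to srh-286 on chromosome V (17802769 to 17844206), had none, and neither had the run of 6 on chromosome II from srh-68 to srh-70 (12507338 to 12518859) or the run of 5 on chromosome V from srh-270 to srh-243 (2860130 to 2872106). Neighbouring copies can be close relatives, and the rule for reads with several matches could then bear on them. The similarity of the copies, in runs or alone, was not analysed here. Fewer reads in the runs cannot be told apart from reads lost to that rule.

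The genes around the receptors were mostly low as well. The nearest protein-coding gene outside the family lay a median of 701 bases away, reached 1 CPM in every library for 36 of 222 members (16.2%) and was itself another chemoreceptor for 53. That level was reached by 40.2% of all protein-coding genes and by 24.6% of the other protein-coding genes of chromosome V. The nearest gene reached it for 7 of the 31 members with reads (22.6%) and for 29 of the 191 members without (15.2%). Of 11 members whose nearest gene was at 100 CPM or more, 9 had no read, beside 191 of 222 (86.0%) in the whole family. These 11 share some neighbours, and the neighbour lies up to 16885 bases away, so the count does not set them apart. The members srh-41 and srh-42 had no read although Y54G11A.3, at 747.1 ± 34.8 CPM, was the nearest gene to both.

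**Figure D3:**
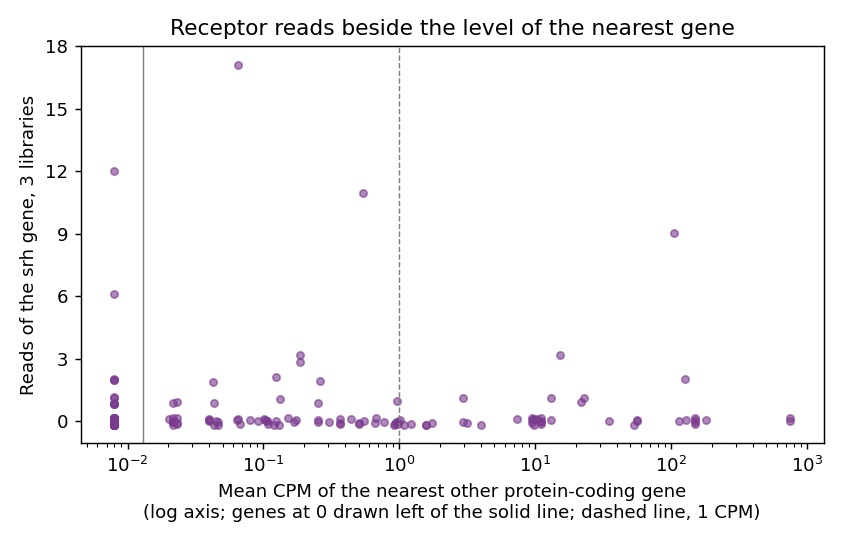
Reads of each srh gene summed over 3 libraries (vertical axis) against the mean CPM of its nearest protein-coding gene outside the family (horizontal log axis; neighbours at 0 are drawn left of the solid line, and the dashed line marks 1 CPM); each point is a gene, shifted slightly up or down to show overlaps. Most points lie at 0 reads at every neighbour level, 191 of 222 in all and 9 of the 11 whose nearest gene is at 100 CPM or more.

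The deposited table also holds 70 srh genes that it calls pseudogenes. Of these, 67 (95.7%) had no read. The pseudogene srh-9 (WBGene00005235, chromosome V, 11478413 to 11479243, minus strand) had 14, 23 and 25 reads in replicates 1 to 3, or 0.964, 1.478 and 1.501 CPM (1.31 ± 0.304, SD, n = 3). At 1.67 CPM per kb it lay above every protein-coding member, and its 62 reads compare with 94 for the 222 coding genes together. No annotated exon overlaps it, and the nearest coding gene, nas-22, had 0.0230 CPM. The other pseudogenes with reads were srh-86 with 3 and srh-66 with 1. The annotation used for positions calls 4 of the 222 members pseudogenes (srh-165, srh-210, srh-261 and srh-278), and of these only srh-210 had a read, a single one. It calls srh-85 and srh-146, pseudogenes in the deposited table, protein coding, and neither had a read.

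Most genes of the other chemoreceptor families were without reads too. Across the other 21 families defined by symbol, with 1118 protein-coding genes, 866 (77.5%) had no read, 27 (2.42%) had at least 3 reads in every library and 5 (0.447%) reached 1 CPM in every library, against 191 (86.0%), 1 (0.45%) and 0 for srh. A larger share of genes without reads than in srh was found in 4 families, srz (91.2% of 68), srj (90.0% of 40), sru (90.0% of 40) and srw (88.6% of 114), and a smaller share in 17. The str family, the nearest in size with 195 genes, had 80.0% without a read and 164 reads in all. The sri family had 80.3% of 61 genes without a read. Whether srh differs from these families was not tested, since genes of a family are not replicates. No gene passed 1 CPM in every library in 17 of the 22 families, srh included.

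**Figure D4:**
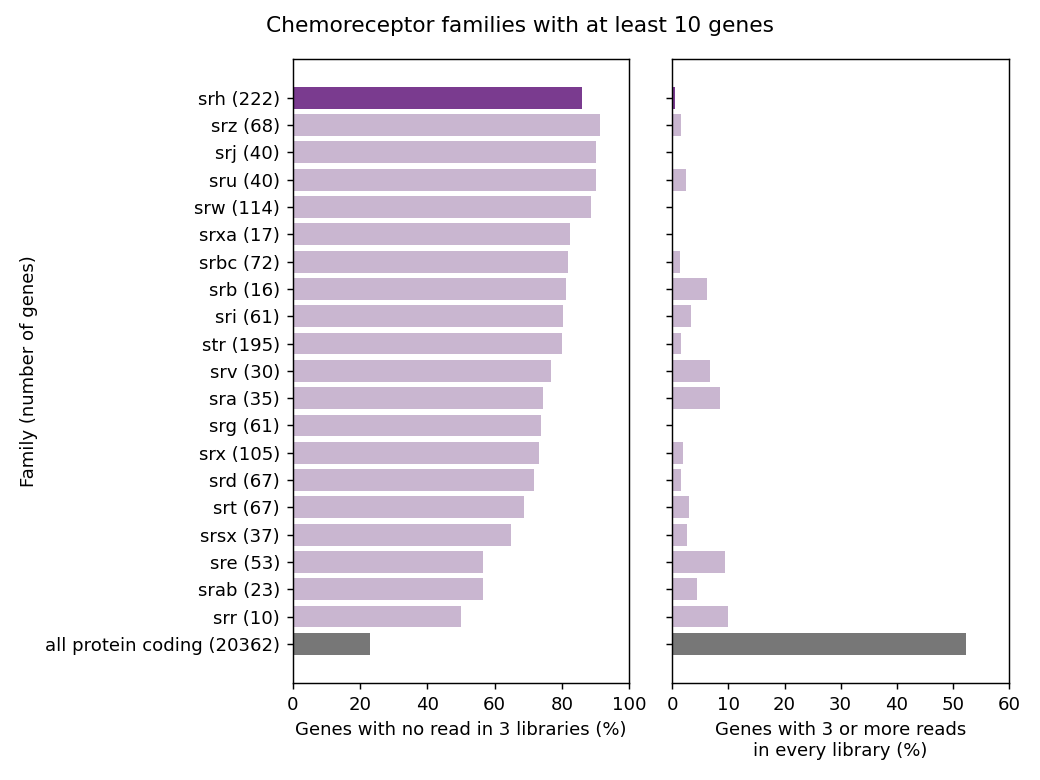
Share of genes with no read in 3 libraries (left, %) and with 3 or more reads in every library (right, %), for srh (top), the other chemoreceptor families with at least 10 genes ordered by the left panel, and all protein-coding genes (bottom); the number of genes is in brackets. For srh the shares are 86.0% and 0.45%, and for all protein-coding genes 22.9% and 52.3%.

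The genes that carry and serve such receptors were partly present. Of 5 genes that move membrane proteins to sensory cilia, 4 (80.0%) reached 1 CPM in every library, against 40.2% of all protein-coding genes. The chaperone-like gene odr-4, which is needed to bring odorant receptors to the cilium, had 53.7 ± 3.56 CPM, and its partner odr-8 had 120.5 ± 17.6 CPM (SD, n = 3). The adaptor subunit gene unc-101 had 7.02 ± 1.35 CPM, and arl-3 was lowest, at 0.0214 CPM.

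Of 24 genes for G proteins and their regulators, 7 (29.2%) reached 1 CPM in every library and 5 (20.8%) had no read, against 40.2% and 22.9% of all protein-coding genes. Per length, the highest were the gamma subunit gene gpc-2 (77.3 CPM per kb), the Go alpha gene goa-1 (35.3 CPM per kb), which also acts in dividing embryos, and the arrestin gene arr-1 (7.68 CPM per kb). The 5 genes at 0 were odr-3, the alpha subunit of olfactory neurons, gpa-5, gpa-11, gpa-13 and gpc-1.

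The channels and cyclases of sensory transduction were low. Of 13 genes, 2 (15.4%, against 40.2% of all protein-coding genes) reached 1 CPM in every library, the cGMP-dependent kinase gene egl-4 (112.2 ± 3.32 CPM) and the guanylyl cyclase gene gcy-28 (28.7 ± 2.53 CPM). The TRPV channel gene ocr-2, next per length, had 18, 4 and 13 reads, and its partner osm-9 had 2, 2 and 4. The cyclic nucleotide-gated channel genes tax-4 and tax-2 had 3, 2 and 1 reads and 8, 5 and 1 reads, while daf-11 and che-6 had none. Per length, ocr-2 lay at 0.264, tax-2 at 0.126, osm-9 at 0.0587 and tax-4 at 0.0521 CPM per kb. The whole list ran from 0 to the 29.8 CPM per kb of egl-4. The highest srh gene per length, srh-237, was at 0.242 CPM per kb, and the median srh gene was at 0.

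Of 29 genes of the sensory cilium and its transport machinery, 8 (27.6%) reached 1 CPM in every library, against 40.2% of all protein-coding genes. Highest per length were dyf-3 (29.2 CPM per kb), the RFX transcription factor gene daf-19 (4.50 CPM per kb) and the kinesin-II motor gene klp-20 (3.79 CPM per kb). The transport gene che-2 and the BBSome genes bbs-1 and bbs-2 had no read.

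Genes listed as markers of other cells had reads to different degrees, and their part in the receptor reads was not tested. Whether the reads of these genes came from the cells they are listed for was not tested either. Of 16 pan-neuronal genes, 10 (62.5%) reached 1 CPM in every library, against 40.2% of all protein-coding genes. That list added up to 166 to 171 CPM per library. Most of that came from snb-1 (43.7 CPM per kb), ehs-1 (22.2) and maco-1 (7.96). The synaptic vesicle GTPase gene rab-3 had 9, 11 and 4 reads, and the synaptotagmin gene snt-1 had none. Of 9 genes of sense organ glia, 2 (22.2%, below the 40.2% of all protein-coding genes) reached 1 CPM in every library, and vap-1 and mir-228 had no read. The latter is a microRNA gene with 98 bases of exon, which these libraries may not capture. The glia list added up to 51.3 to 52.7 CPM, nearly all from lit-1 (48.3 ± 0.226 CPM). The labelled tissue was checked against its own markers. All 16 oocyte and germ cell genes reached 1 CPM in every library, from syp-1 (13.3 CPM per kb) to perm-2 (8085), perm-4 (7581) and rme-2 (1761). Of 11 somatic gonad genes 10 (90.9%) did so, led by inx-8, fln-1 and inx-9 with plc-1 lowest. The count was 16 of 20 (80.0%) for spermatogenesis, led by msp-31, msp-33 and msp-19 with fer-1 lowest. For intestine it was 6 of 9 (66.7%), led by vit-6, vit-2 and cpr-6 with elt-2 lowest. For cuticle it was 3 of 8 (37.5%, near the 40.2% of all protein-coding genes), led by col-140, col-119 and col-19 with bli-1 lowest. The median srh gene was at 0 CPM per kb, the median pan-neuronal gene at 1.05 and the median oocyte and germ cell gene at 363.

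**Figure D5:**
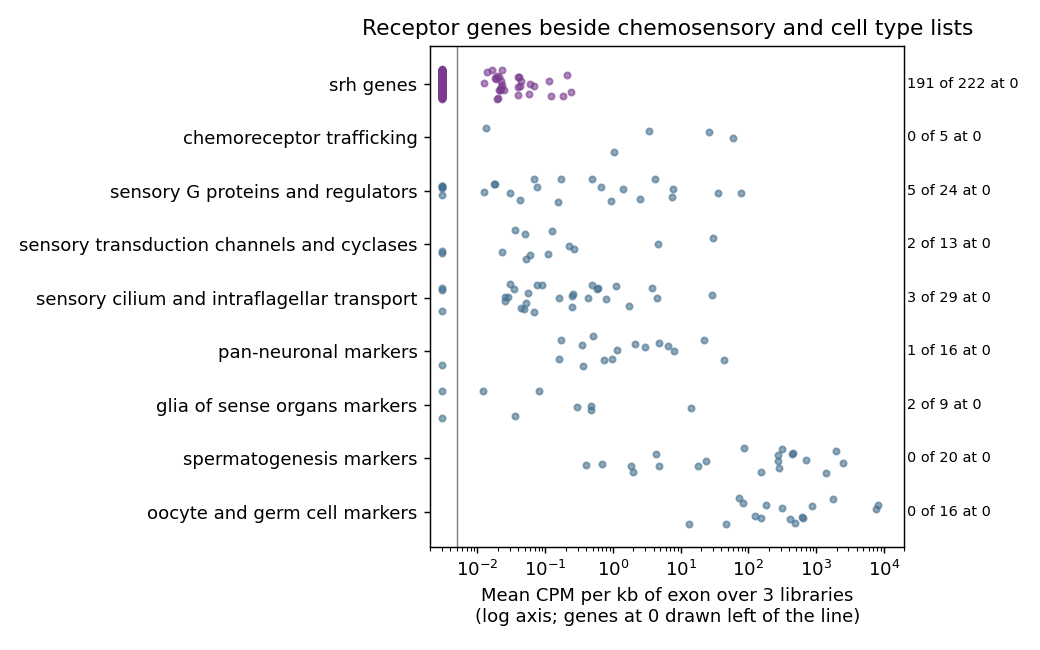
Mean level of each gene over 3 libraries (horizontal log axis, CPM per kb of exon; genes at 0 are drawn left of the line) for srh genes (top), lists of chemosensory genes, and cell type lists; each point is a gene, and the number at 0 stands at the right. The srh points lie at or below 0.242 CPM per kb, with 191 of 222 at 0, while all 16 oocyte and germ cell genes lie at 13.3 or higher.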

How the data were processed

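RNA of dissected germlines was measured in 3 libraries of 1 group. The authors deposited raw read counts per gene. Libraries were made with a SMART-Seq low-input kit, per the labels' protocols. The submitters' processing notes name STAR, featureCounts and the build WBcel235. Versions, annotation release, strand setting and the rule for reads with several matches are not stated there.

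CPM were computed on each column total with pandas 2.3.3. Detected meant at least 1 CPM in every library, and the limit of detection was 3 counts. Positions, exon lengths (exons of a gene merged) and overlaps came from the Ensembl release 115 annotation of WBcel235. CPM per kb is mean CPM divided by exon length. Intervals are exact Poisson, 95%. Of the 161 symbols of the lists, 160 were matched (opt-2 was not), with older symbols used where needed. Replicates were not duplicates: the chi-square of their counts per degree of freedom was 65.5 to 107 between pairs.

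With 1 group, no test was made. The members and lists were chosen with earlier results of these data known. Named genes were all members above the limit in every library, the 10 highest by mean CPM, the 3 with the largest gap between libraries, srh-132, srh-142, srh-220 and srh-234, and the 3 highest (per length) and the lowest of each list; others were chosen after their values were seen. Alternatives were other thresholds, edgeR 4.0.16 TMM and DESeq2 1.42.0 size factors as library sizes, leaving out each library, members without overlaps and members coding in the reference.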

Additional observations from a re-analysis of the deposited data

How the results depend on the processing

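The highest value of any member in any library was 0.482 CPM, so no member was detected at a minimum of 0.5 CPM, in 2 of the 3 libraries, with TMM or DESeq2 library sizes, with protein-coding totals or with a library left out. The stricter minima (5 CPM, 10 raw reads) and the subsets of members (without overlaps, or coding in the reference annotation, a choice made after seeing the data) could not raise a count of 0 and say nothing of its stability. The number of members at the limit of detection was 1 in every library, 2 in at least 2 libraries, 7 in at least 1 library and 8 with 3 reads summed over the libraries. It was 0 among members without exon overlap, which leaves out srh-48, and ranged from 1 to 2 with a library left out; without replicate 1 it was 2, since srh-237 has no read there. The number of members with no read was 191, between 197 and 201 with a library left out, and 163 of the 187 members without overlap. The summed level of 2.02 CPM moved by more than the spread between libraries only without overlapping members (1.47 CPM) and without srh-48 (1.65 CPM), and was 1.9 to 2.12 CPM with a library left out. The median member was at 0 CPM throughout, except among members with a read (0.023 CPM). The share of other chemoreceptor genes that passed was 0.447% at 1 CPM and 2.42% at the limit of detection. No paired analysis was possible because all samples belong to 1 group. At a family total of 94 reads, depth limits any order among members below the first few.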

Other observations

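Outside the srh family, a single chemoreceptor gene stood far from the rest. The gene sri-40 (WBGene00005552, chromosome II, 3177963 to 3180478, plus strand) had 818.9, 944.3 and 846.2 CPM in replicates 1, 2 and 3 (869.8 ± 66.0, SD, n = 3), with 713.6 CPM per kb. It held 95.1% of the reads of all chemoreceptors other than srh. No annotated exon overlaps it. Its nearest coding gene, Y27F2A.6, directly downstream on the opposite strand, had 1.70 ± 0.28 CPM, and the next on its own strand, Y27F2A.8, had 3.12 ± 1.20 CPM. Without sri-40, the other chemoreceptors had 639, 758 and 690 reads in replicates 1, 2 and 3, or 0.0378 CPM per kb, against 0.00829 CPM per kb for srh.

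The other chemoreceptors at 1 CPM or more in every library were srr-3 (5.92, 6.87 and 2.04 CPM), srsx-25 (2.69, 4.11 and 1.32 CPM), sre-44 (1.10, 4.18 and 1.92 CPM) and srab-4 (1.38, 1.09 and 1.08 CPM). Among these, srr-3 and srsx-25 were lowest in replicate 3 and highest in replicate 2, while srab-4 varied least.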
